A study of Mus musculus with 30 samples.

Results

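The genes described here encode the proteins of the cytosolic ribosome. They were taken from a table of 11249 mouse genes as the protein-coding rows whose symbols start with Rpl or Rps and a number, which gave 78 genes, 48 of the large and 30 of the small subunit. Another 3 rows that match the name are pseudogenes and were left out. Of 82 protein-coding genes with such names in the annotation, 4 (Rpl10l, Rpl24, Rpl39l and Rps10) were not analysed here. All 78 passed the filter on low values, and 75 of them averaged over 100 CPM (reads per 1e+06 reads) as a mean of the 6 group means.

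Muscle of male mice was sampled 3 days after a transection of the spinal cord at the third thoracic level (T3), at the ninth (T9), or after sham surgery. The gastrocnemius, a calf muscle below both lesions, gave 4 libraries per group, and the triceps brachii, an upper forelimb muscle, gave 6 per group. Mice were inferred from numbers in the sample descriptions. By these numbers both muscles of 12 mice can be matched, which covers 24 of 30 libraries. Strain, age and any drug treatment were not stated in the labels, and the study asks whether the level of the lesion matters for muscle wasting.

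A ribosome is built from ribosomal RNA and about equal numbers of each ribosomal protein, so these genes are usually expressed in step. Their mRNAs are short and, as a class, begin with a C followed by a run of pyrimidines, the terminal oligopyrimidine (TOP) tract through which mTORC1 signalling controls their translation. Striated muscle has a ribosomal protein of its own: Rpl3l encodes a paralog of Rpl3, the large subunit protein next to the centre where peptide bonds form, and takes its place in ribosomes of adult skeletal muscle and heart. Mouse muscle that grows under overload is known for less Rpl3l and more Rpl3.

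The first 90 coding bases of the muscle paralog and of Rpl3 are shown because the main result turns on telling their mRNAs apart. Capitals mark the 21 positions that differ between them. Rpl3l starts its coding sequence at chr17:24727884-24728403 on the plus strand, a span that holds introns, and Rpl3 at chr15:80082496-80083326 on the minus strand (GRCm38).
Rpl3l: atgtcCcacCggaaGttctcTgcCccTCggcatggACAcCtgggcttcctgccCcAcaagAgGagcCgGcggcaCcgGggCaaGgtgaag
Rpl3: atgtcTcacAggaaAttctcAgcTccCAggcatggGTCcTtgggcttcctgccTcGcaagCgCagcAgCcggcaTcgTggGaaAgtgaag
The coding sequences are 1221 bases (Rpl3l) and 1209 bases (Rpl3) long, and the longest run shared by both transcripts is 22 bases, against reads of 150 bases. Reads of the pair are therefore easily told apart. Rpl3 does share a run of 728 bases with the pseudogene Rpl3-ps1, which has a row of its own with 9.79 ± 3.64 CPM after T3, 14.5 ± 2.20 CPM after T9 and 4.63 ± 2.24 CPM in sham gastrocnemius (SD, n = 4 each), so that some Rpl3 reads may be counted there.

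The starts of 4 members are shown because they carry results below and differ in the TOP tract. Each line holds 10 bases before the RefSeq start and 20 from it, on the strand of the gene (RefSeq, GRCm38.p6), with capitals for a run of pyrimidines that opens with C.
Rps6, chr4:86857348-86857377, minus strand: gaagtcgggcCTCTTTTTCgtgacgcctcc
Rpl13a, chr7:45128726-45128755, minus strand: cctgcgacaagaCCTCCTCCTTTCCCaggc
Rpl22l1, chr3:28805498-28805527, plus strand: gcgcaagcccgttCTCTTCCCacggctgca
Rpl3l, chr17:24727816-24727845, plus strand: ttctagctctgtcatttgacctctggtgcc
Rps6 opens with the tract at the first base, Rpl13a and Rpl22l1 do so a few bases later, and the Rpl3l window holds none of at least 5 bases within 5 bases of its start. Starts were matched for 58 members, 70 starts in all. A C followed by at least 4 bases that are each C or T, read on the strand of the gene, stood at the first base of 12 member starts (17.1%) and of 2.51% of all 32851 starts. Within 5 bases of the start on either side, before it or after it, such a run opened in 42.9% of member starts and in 18.3% of all starts.

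Per length, the median member had 365 CPM per kb of transcript as a mean over the groups, 328 for the large and 445 for the small subunit. Rps14 (1379 CPM per kb) and Rps2 (1056), both of the small subunit, and Rplp1 (1286), a stalk protein of the large one, stood highest. Rpl13a, a large subunit protein, stood lowest at 7.93 CPM per kb, and many copies of it in the mouse genome make its count uncertain. Member transcripts were short, with a median of 767.5 bases against 2743 for all genes of the table.

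The 78 genes moved together from library to library. Their share of all reads ran from 1.31% to 6.63%. It was 1.83% to 2.23% in gastrocnemius T3, 1.88% to 2.54% in gastrocnemius T9 and 1.31% to 4.78% in gastrocnemius sham. In the triceps it was 1.79% to 3.67% after T3, 1.69% to 4.12% after T9 and 1.54% to 6.63% in sham. Sham libraries were the most spread in both muscles, and their range took in that of the injured groups. The standard deviation of a member's log2 CPM over the 30 libraries had a median of 0.603, and 0.159 once the median of the 78 genes in each library was subtracted. The 4 members above 0.4 after that subtraction were Rpl3 (0.856), Rpl3l (0.530), Rpl7l1 (0.483) and Rpl10 (0.421). Before it Rpl7l1 had the lowest value of all members (0.237), as it stayed level while the others moved. These are the genes that departed from the common course, and the map of deviations shows it as rows that break the vertical bands.

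**Figure D1:**
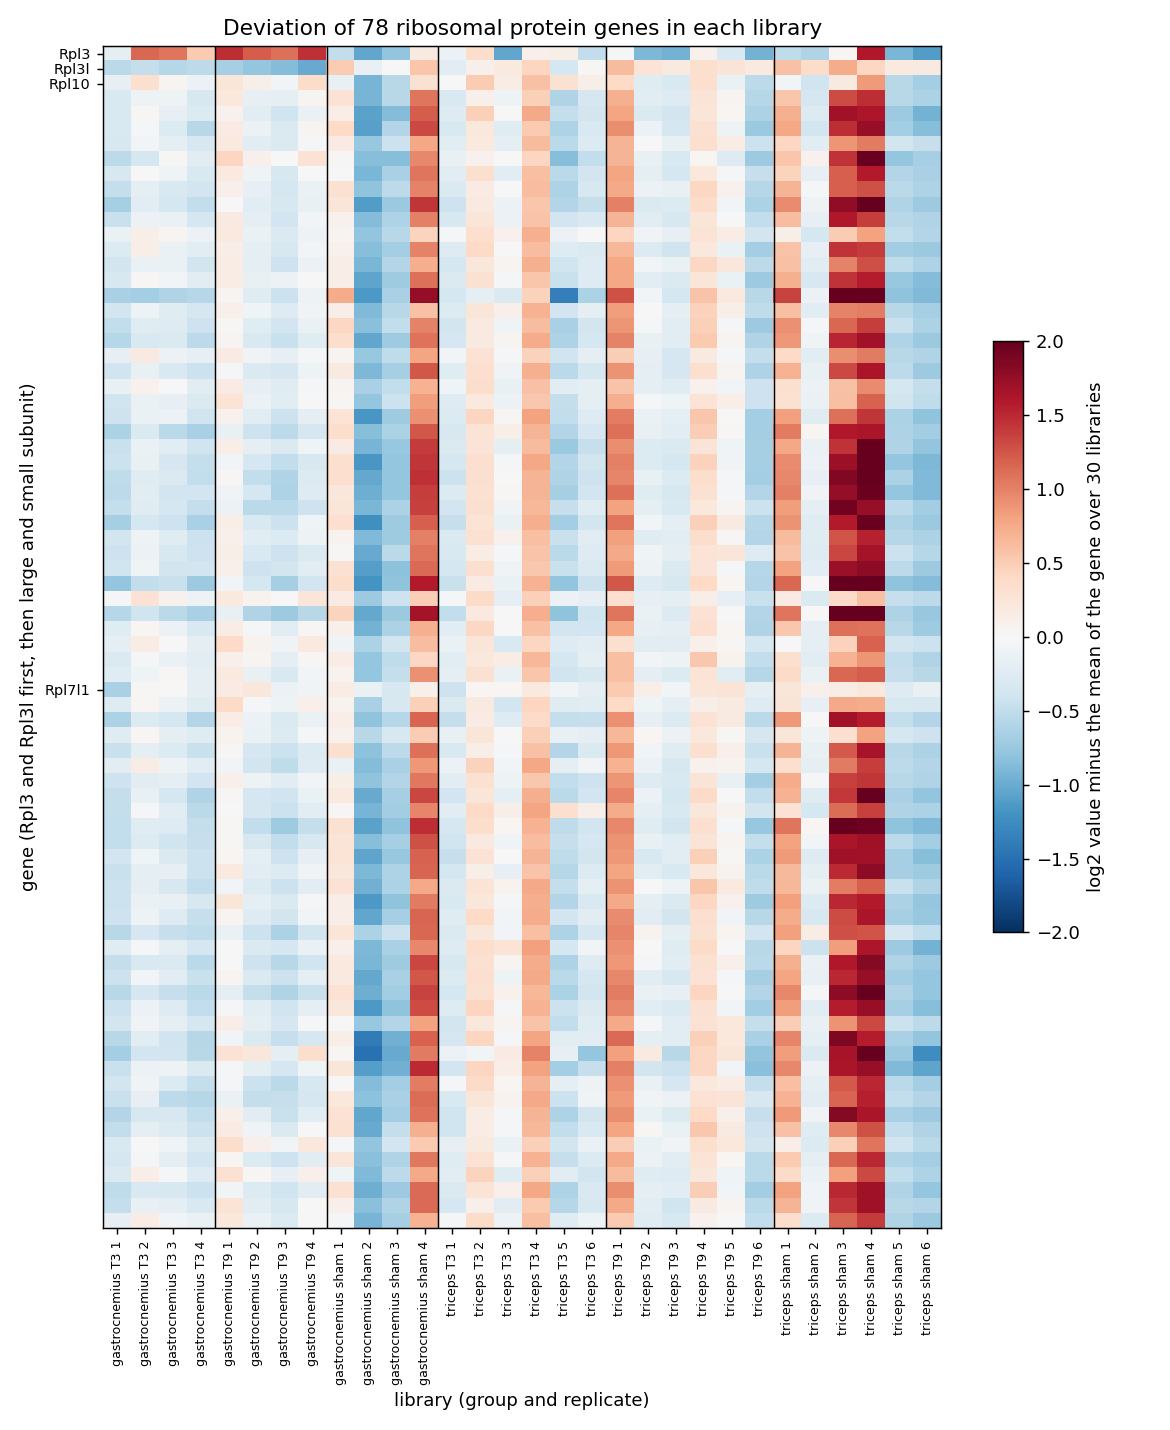
Deviation of each of the 78 genes (rows) from its own mean over 30 libraries, in log2 units (colour, red higher), for each library (columns, grouped by muscle and surgery). Vertical bands show that most genes rise and fall together within a library, with triceps sham 3 and 4, gastrocnemius sham 4 and triceps T9 1 highest, while Rpl3 and Rpl3l in the top rows follow the injury in the gastrocnemius.

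Values of the libraries themselves moved with that common course. The 6 libraries with the highest ribosomal protein share were also the 6 with the lowest median log2 CPM over all genes, namely triceps sham 1, 3 and 4, gastrocnemius sham 4, triceps T9 1 and triceps T3 4. In these 6, the 1115 other genes with transcripts under 1000 bases lay 0.37 to 0.79 above their mean (median, log2), and the 1936 genes with transcripts over 5000 bases deviated by -0.42 to -1.34. Depth was 13.3 to 23.4 M reads (M for 1e+06) apart from 88.8 M in triceps T3 5. Triceps sham 4 also held 1000 CPM summed over 8 of 10 macrophage markers (Adgre1 and Cd14 have no row), against 17.8 to 75.8 CPM in every other library, and 1137 CPM of 7 fibroblast markers against 137 to 422. All 10 muscle fibre markers were measured in every library, 68640 to 158323 CPM in sum. The part of these library differences in the results on the ribosomal protein genes was not tested beyond the alternative scalings given below. As in any bulk tissue, fewer cells of a type and less RNA per cell cannot be told apart here.

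**Figure D2:**
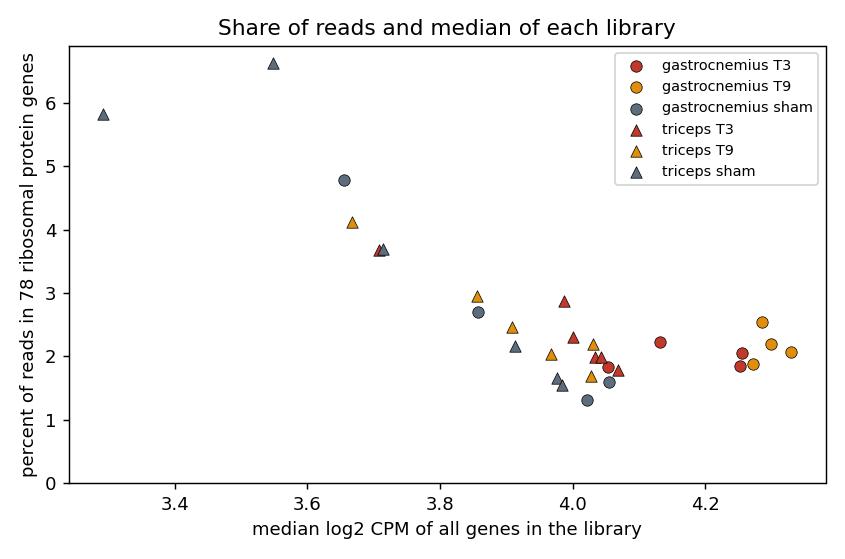
Percent of reads in the 78 ribosomal protein genes (y axis, from 0) against the median log2 CPM of all genes (x axis) for each of 30 libraries, circles for gastrocnemius and triangles for triceps, coloured by surgery. The libraries with the highest shares, up to 6.63%, have the lowest medians, and the injured gastrocnemius libraries lie at the right at 1.83% to 2.54%.

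In the gastrocnemius, the muscle paralog Rpl3l fell and Rpl3 rose after both injuries. Rpl3l had 403, 417, 392.5 and 406 CPM after T3, against 830.3, 528, 589 and 855 CPM in sham. Every T3 library lay below every sham library, and the T3 libraries were close to each other. The log2 change was -0.76 ± 0.16 (SE, limma adjusted p = 0.0033). Rpl3 had 79.5, 200.3, 189 and 129.6 CPM after T3, against 64.0, 44.0, 52.2 and 103 CPM in sham. T3 replicate 1 lay below sham replicate 4, and the other 3 T3 libraries lay above all of sham. The change was 1.17 ± 0.29 (adjusted p = 0.0084), and 0.90 (adjusted p = 0.054) after centring each library on its median. These were the 2 of 78 members called at an adjusted p under 0.05, where 33.7% of all genes tested were called, 27.1% higher and 6.65% lower (14.6% and 14.5% after centring).

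After T9 injury the same pair stood further apart from sham. Rpl3l had 369, 341, 321 and 291 CPM after T9, all below every sham and every T3 library of the gastrocnemius. The log2 change against sham was -1.06 ± 0.16 (adjusted p = 0.00043). Rpl3 had 252, 209, 194 and 249 CPM after T9, all above every sham library. Its change was 1.85 ± 0.29 (adjusted p = 0.00055), and 1.45 (adjusted p = 0.0067) after centring. Again these were the 2 members called, 1 higher and 1 lower, with 43.2% of all genes called, 37.6% higher and 5.67% lower (11.1% and 12.4% after centring). Without sham replicate 4, 8 members were called after T9, and without sham replicate 2, 5 were called after T3. Rpl3l kept its direction but lost its call in both injuries with the library median as a covariate (-0.40 after T3 and -0.53 after T9, limma adjusted p = 0.14 each). Library medians ran from 3.66 to 4.06 in sham, 4.05 to 4.26 after T3 and 4.27 to 4.33 after T9. The covariate therefore nearly follows surgery in this muscle, and that fit cannot separate them. The call, but not the direction, was also lost when libraries were centred on the ribosomal protein genes.

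Markers of other cells moved in the same comparisons. Of 8 macrophage markers measured, 1 rose after T3 and 3 after T9 in the gastrocnemius, led by the lysosomal protein gene Cd68 (3.01 ± 0.47 after T3, adjusted p = 0.00041, and 3.22 ± 0.47 after T9, adjusted p = 0.00031). Their summed level was 41.4 to 51.5 CPM after T3, 36.95 to 56.9 CPM after T9 and 17.8 to 61.9 CPM in sham, so that the sham range took in both injured groups. Cd68 itself was low in sham gastrocnemius, at 0.45 to 2.34 CPM. Lyz2 averaged 15.4 CPM after T3, 17.3 CPM after T9 and 21.7 CPM in sham, and Ctss 2.12, 1.83 and 3.00 CPM, both without a call. Of 3 satellite cell markers (Pax7 and Calcr have no row) 1 rose after T9, Myf5 (1.27 ± 0.27, adjusted p = 0.0031). Of 7 fibroblast markers 2 fell after T3 and 1 after T9, all collagen genes (Col3a1 by -1.49 and -0.86, Col1a1 by -0.997 after T3). Of 10 muscle fibre markers 3 fell after each injury (Ckm, Mb and Myh2, by -0.42 to -1.74) and 1, Myh1, rose after T3 (1.24 ± 0.44). The part of these markers in the change of Rpl3l and Rpl3 was not tested.

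**Figure D3:**
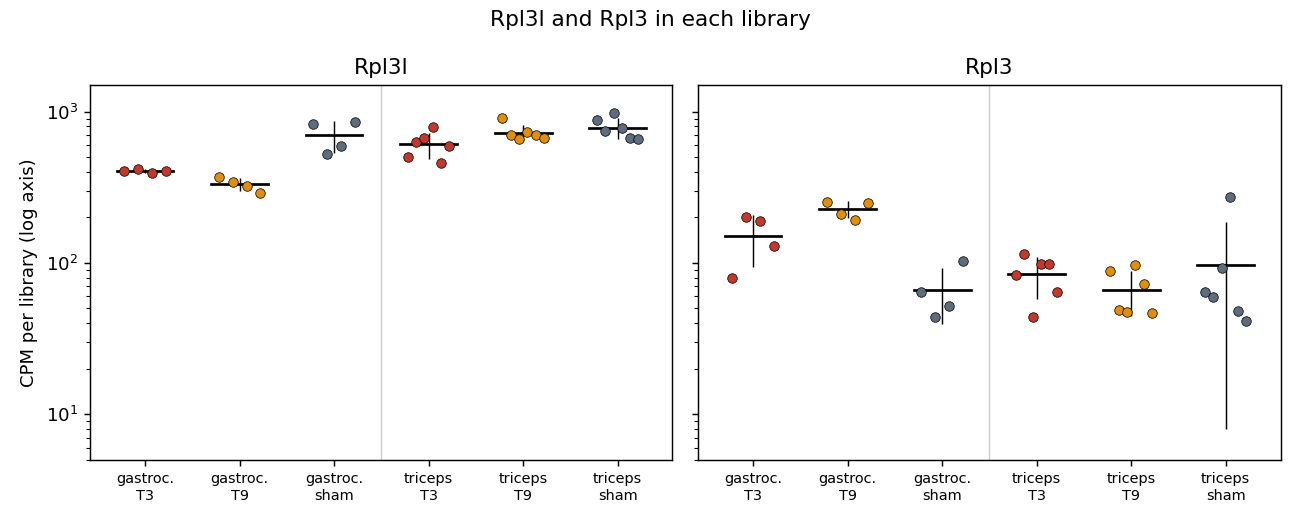
CPM of Rpl3l (left) and Rpl3 (right) in each library on a log axis, by muscle and surgery, with points for libraries, horizontal lines for group means and vertical lines for 1 SD (n = 4 gastrocnemius, n = 6 triceps). Gastrocnemius T3 and T9 libraries have less Rpl3l than every sham library of that muscle, and the T9 libraries have more Rpl3 than every one, while the triceps groups overlap.

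Set against each other within a library, the pair gives a measure that no scaling of whole libraries can change. The log2 value of Rpl3l minus that of Rpl3 was 1.53 ± 0.61 after T3, 0.55 ± 0.23 after T9 and 3.46 ± 0.28 in sham gastrocnemius (SD, n = 4 each). Per length, that is 2.04 to 4.98 Rpl3l transcripts for each Rpl3 transcript after T3, 1.14 to 1.63 after T9 and 8.16 to 12.7 in sham. By these counts Rpl3l made up 67.1% to 83.3% of the pair after T3, 53.4% to 61.9% after T9 and 89.1% to 92.7% in sham. Any Rpl3 reads counted under the pseudogene Rpl3-ps1 would make these ratios and percentages too high. No library of one group reached into the range of another. The differences were -1.93 for T3 against sham, -2.91 for T9 against sham and 0.97 for T3 against T9. Each had a two-sided exact permutation p of 0.0286, the smallest that 4 against 4 libraries allow, or 0.0429 adjusted over the 9 tests of this measure. With 3 libraries left in a group, the unadjusted p passed 0.05 without sham replicate 1 or 2 for T3 against sham (-1.85 and -1.89, exact permutation p = 0.0571) and without any T9 replicate for T3 against T9 (0.86 to 1.03, exact permutation p = 0.0857). Gene by gene the T3 and T9 groups were not told apart: Rpl3l differed by 0.30 (adjusted p = 0.42) and Rpl3 by -0.68 (adjusted p = 0.29). Of the 78 members 0 were called between T3 and T9, 1 at an unadjusted p under 0.05, with 1.63% of all genes called. Weights from the recovered reads (voom) also gave 0, a fit of only the groups compared gave 2 (9.43% of all genes) and the library median as a covariate gave 1 (3.76%).

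In the triceps, which is supplied from segments above both lesions, the pair moved less, by the tests between muscles given further on. Rpl3l had a lowest, median and highest value of 457, 611 and 789 CPM after T3, 660 to 903 CPM with a median of 700.3 after T9, and 659, 763 and 972 CPM in sham. T3 libraries overlapped with sham, and T9 libraries lay within the sham range. The change after T3 was -0.38 ± 0.13 (adjusted p = 0.040). It was the 1 member called of 78, with 23.3% of all genes called, and it passed under 15 of 32 other settings. The count was 4 without sham replicate 2 and 2 without sham replicate 4. It was not called under the replicate block (adjusted p = 0.075), label number 60 alone (0.13) or without any 1 of triceps sham replicates 1, 3, 5 and 6, T3 replicates 1, 2, 3 and 5 and T9 replicates 4 and 6 (adjusted p of 0.051 to 0.10). Rpl3 had a lowest, median and highest value of 44.1, 90.4 and 115 CPM after T3, 47.0, 60.82 and 96.1 CPM after T9, and 41.5, 61.7 and 274 CPM in sham. Its groups overlapped, and the highest sham value came from replicate 4, the library rich in macrophage markers. The change of Rpl3 was 0.07 after T3 and -0.26 after T9 (adjusted p = 0.89 and 0.73). After T9 the triceps had 0 of 78 members called by limma, 0 at an unadjusted p under 0.05 and 0 with voom weights, where 0.00889% of all genes were called. Between T3 and T9 it had 0 called, 1 at an unadjusted p under 0.05 and 0 with voom weights, where 7.6% of all genes were called.

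Rpl3l minus Rpl3 in the triceps was 2.90 ± 0.62 after T3, 3.504 ± 0.39 after T9 and 3.35 ± 0.93 in sham (SD, n = 6 each). The difference from sham was -0.45 after T3 (exact permutation p = 0.367) and 0.15 after T9 (exact permutation p = 0.824), and T3 differed from T9 by -0.60 (exact permutation p = 0.110). None passed. Without triceps sham replicate 4, which stood at 1.505, the T3 difference was -0.82 (exact permutation p = 0.038) and the T9 difference -0.22 (exact permutation p = 0.319). Without T3 replicate 3, T3 differed from T9 by -0.81 (exact permutation p = 0.0238).

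Both muscles of the same mouse allow a direct comparison. In the 4 T3 mice the measure in the gastrocnemius minus that in the triceps was -0.25, -1.38, -2.28 and -1.96. In the 4 T9 mice it was -2.81, -3.15, -3.08 and -2.70. In the 4 sham mice it was -0.086, -0.066, 0.10 and 1.55, so that each T3 and T9 mouse lay below each sham mouse. The response of the gastrocnemius minus that of the triceps was -1.84 for T3 and -3.31 for T9 (exact permutation p = 0.0286 each, the smallest 4 against 4 mice allow, 0.0429 adjusted over 9 tests). Without any 1 sham mouse the T3 value was -1.996 to -1.45 (exact permutation p = 0.0571 in each case). Over all 12 mice the gastrocnemius averaged 1.84 ± 1.32 and the triceps 3.19 ± 0.73 (SD), a difference of -1.34 (paired exact permutation p = 0.0142, adjusted 0.0429). That value pools surgeries with unlike means (0.38 in sham, -1.47 after T3 and -2.94 after T9). It does not describe a difference between the muscles apart from injury.

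**Figure D4:**
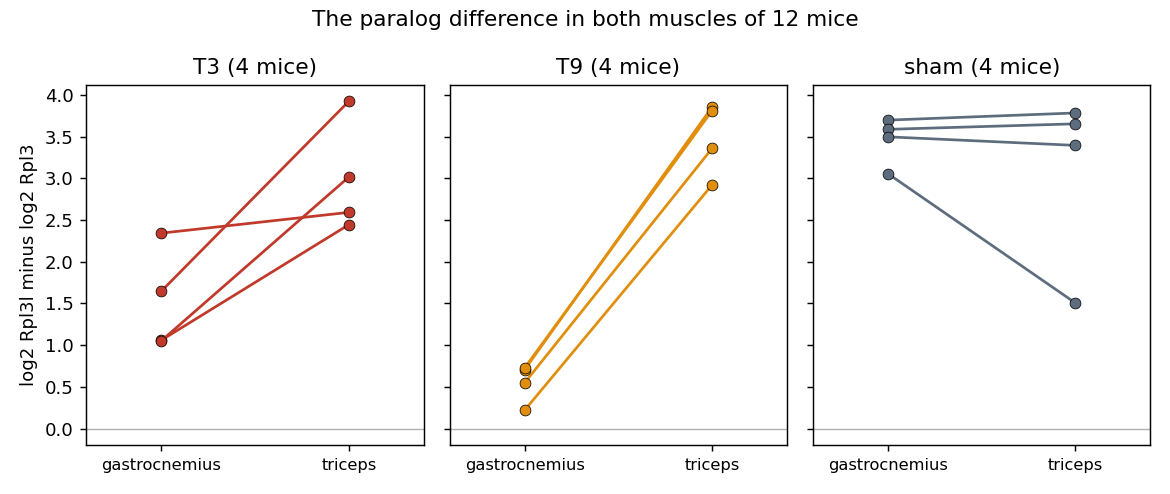
Log2 CPM of Rpl3l minus that of Rpl3 in gastrocnemius and triceps, joined by a line for each of 12 mice, in panels for T3, T9 and sham (4 mice each). All 4 T9 lines climb steeply from gastrocnemius (0.22 to 0.73) to triceps (2.92 to 3.85), the T3 lines climb less evenly, and 3 of 4 sham lines are nearly level.

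As single genes, 5 members responded to T9 differently in the gastrocnemius than in the triceps by limma with mouse as a block, where 6.95% of all genes were called. Rpl3 responded more by 2.43 ± 0.35 (adjusted p = 0.0019) and Rpl3l by -0.88 ± 0.21 (adjusted p = 0.025). Rpl3l lost its call without any 1 of the mice of triceps T9 replicates 1, 2, 3 and 4 and triceps sham replicates 1 and 4 (limma adjusted p = 0.052 to 0.080). Rps27a, which encodes a ubiquitin fused to a small subunit protein, stood at 1.41 ± 0.36 (adjusted p = 0.033). It had 209, 199.7, 148 and 217 CPM in gastrocnemius T9 libraries, against 174, 60.45, 84.5 and 351 CPM in gastrocnemius sham. The sham values enclosed those after T9. In the triceps it had a lowest, median and highest value of 98.7, 198 and 301 CPM after T9, against 72.3, 222 and 788 CPM in sham. Rpl13a (1.33 ± 0.32, adjusted p = 0.024) had 10.1, 8.01, 7.51 and 9.12 CPM after T9 and 7.59, 4.13, 4.16 and 14.7 CPM in sham gastrocnemius. Rps6, whose protein is the substrate of the kinase S6K, gave 0.76 ± 0.21 (adjusted p = 0.0496). It had 383, 315, 277 and 333 CPM after T9 and 290.5, 168, 215 and 525 CPM in sham gastrocnemius. Their sham libraries thus spanned the T9 libraries in both genes, and within either muscle neither passed. Rpl3 kept its call whichever mouse was left out, while the count of 5 was 1 without any 1 of the mice of triceps T9 replicates 2, 3 and 4, 2 without that of triceps sham replicate 4, and 3 without that of triceps sham replicate 2 or T3 replicate 3. After centring each library on its median Rpl3 was the 1 member called, where 8.21% of all genes were. For the response to T3, 0 members were called by limma, 6 were higher at an unadjusted p under 0.05 and 0 were called with voom weights, where 1.24% of all genes were called. Other settings called more members: 1 with quantile normalization (2.8% of all genes), 5 with the trend on transcript length and GC removed (3.52%) and 39 with the library median as a covariate (11.5%). Rpl3 stood at 1.48 ± 0.35 (adjusted p = 0.060). It was called under those 3 settings (adjusted p = 0.033, 0.036 and 0.0075) and without the mouse of triceps sham replicate 1 (0.042) or T3 replicate 1 (0.019).

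The remaining members did not pass in either muscle after either injury, but this depended on the scaling. With the trend on transcript length and GC removed, 14 members were called after T3 and 34 after T9 in the gastrocnemius, where 42.7% and 52.6% of all genes were, and 6 in triceps T3, where 32.9% were. With the library median as a covariate it was 24 and 68 in the gastrocnemius (18.5% and 12.3% of all genes) and 13 in triceps T3 (25.4%). The median log2 change of the 78 genes was -0.20 after T3 and -0.07 after T9 in the gastrocnemius, where the median of all genes was 0.27 and 0.40. In the triceps it was -0.40 after T3 and -0.33 after T9, where all genes had 0.23 and 0.17. Large and small subunit genes lay close, with medians of -0.16 and -0.22 in the gastrocnemius after T3 and -0.38 and -0.40 in the triceps after T3. The sign of these medians depended on the scaling. With the trend on transcript length and GC removed the gastrocnemius medians were 0.12 after T3 and 0.34 after T9, where all genes had 0.26 and 0.38. With the library median as a covariate they were 0.79 and 1.36, where all genes had 0.02 and 0.01. In the gastrocnemius this covariate nearly follows surgery, so its counts and medians cannot separate a shift of the libraries from the injury. Without the 4 libraries of lowest median they were 0.19 and 0.32, where all genes had 0.19 and 0.32. No direction is given for the class as a whole for that reason. Rpl10, an X-linked large subunit gene known in yeast to be needed for the joining of subunits, came nearest to a call after T9 with 252, 231, 207 and 274 CPM, against 193, 112, 146 and 263 CPM in sham gastrocnemius (0.50 ± 0.22, adjusted p = 0.080).

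**Figure D5:**
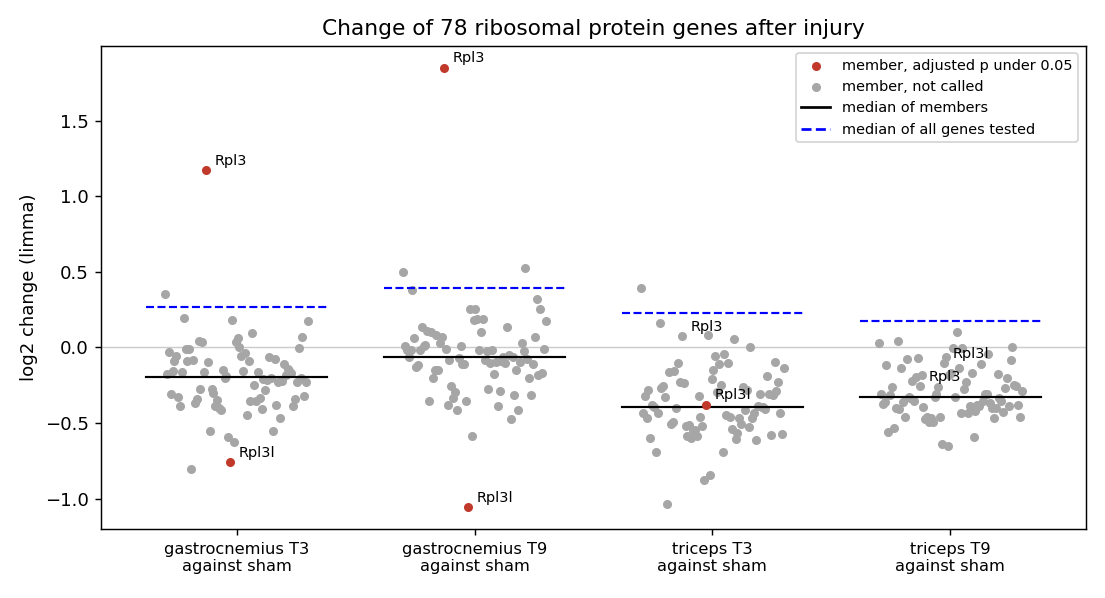
Log2 change against sham (limma) of each of the 78 genes (points) after T3 and T9 in gastrocnemius and triceps, red where the adjusted p was under 0.05, with lines for the median of the members (black) and of all genes tested (blue, dashed). Rpl3 stands alone at the top (1.17 and 1.85) and Rpl3l at or near the bottom (-0.76 and -1.06) of the gastrocnemius columns, while the medians of the members lie below those of all genes in all 4 columns.

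The other paralog pairs gave no call within either muscle. Rpl22l1, the paralog of Rpl22, had 32.7, 32.3, 33.9 and 34.6 CPM after T3, against 86.6, 23.1, 32.9 and 173.5 CPM in sham gastrocnemius. The T3 values all lay within the sham range (-0.80 ± 0.45, adjusted p = 0.18). In the triceps it had a lowest, median and highest value of 19.9, 41.2 and 70.9 CPM after T3, against 28.02, 89.3 and 246 CPM in sham (-1.04 ± 0.39, adjusted p = 0.065). Rps27l, a p53 target in human cells and the paralog of Rps27, had 85.7, 108, 109.5 and 95.8 CPM after T3, against 139, 54.3, 60.19 and 331 CPM in sham gastrocnemius. Its coding sequence matches Rps27 at 76.2% of 252 positions, with a longest shared run of 11 bases. Rpl7l1 averaged close to the same level in all groups, 28.8 to 46.2 CPM after T3 and 36.3 to 50.1 CPM in sham gastrocnemius.

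Between the muscles of sham mice, most ribosomal protein genes were lower in the gastrocnemius in the main fit. This depended on the libraries kept and on the model, so no direction is given for the class here either. By limma with mouse as a block 75 of 78 were lower and 0 higher, where 38.9% of all genes were called, 26.8% higher and 12% lower (17.7% and 20.2% after centring, with 77 members lower). The median change was -0.93 against 0.27 for all genes. Rpl39 (-1.52 ± 0.31), Rps27a (-1.46 ± 0.26), Rpl41 (-1.32), Rps14 (-1.32) and Rps27 (-1.32) had the largest changes. Rpl39 had 125, 43.1, 56.3 and 296 CPM in gastrocnemius sham libraries, against 218, 98.0, 485 and 589 CPM in the triceps libraries of the same 4 mice. The ranges overlapped, and each mouse had more in the triceps. The count of 75 was 3 without the mouse of triceps sham replicate 3, whose mouse number is in doubt. It was 0 without the 4 libraries of lowest median or without mouse as a block, and 18 with the library median as a covariate. Triceps sham replicates 5 and 6 have no matched gastrocnemius library and were not in this fit. These genes took 1.66% and 1.54% of their reads, within the 1.31% to 4.78% of gastrocnemius sham. Rpl3l (-0.29 ± 0.15, adjusted p = 0.13), Rpl4 and Rpl7l1 were the 3 not called. With libraries centred on the ribosomal protein genes, Rpl3l was higher in the gastrocnemius of sham mice by 0.59 (adjusted p = 0.010), and Rpl3 stood at 0.22 (adjusted p = 0.54).

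The muscles were also compared after each injury. After T3, Rpl3 was higher in the gastrocnemius by 0.81 ± 0.25 (adjusted p = 0.029), while Rpl3l (-0.66 ± 0.15, adjusted p = 0.010), Rps27a (-0.75) and Rpl31 (-0.72) were lower, 4 of 78 where 30.4% of all genes were called, 20.5% higher and 9.95% lower. The 4 were 60 without the mouse of triceps sham replicate 3, 8 without that of T3 replicate 1, 0 without that of T3 replicate 3 or 4, 1 without that of T3 replicate 2, and 2 without that of sham replicate 2 or T9 replicate 2, 3 or 4. After T9, Rpl3 was higher by 1.76 ± 0.25 (adjusted p = 0.00024) and 7 members were lower, where 53% of all genes were called, 41.9% higher and 11.1% lower. These 8 were 41 without the mouse of sham replicate 3, 2 without that of T9 replicate 1 or 4, and 5 without that of sham replicate 2, T3 replicate 2 or 3, or T9 replicate 3. Among the 7, Rpl3l changed by -1.18 ± 0.15 (adjusted p = 0.00014) and its neighbour Rps2, whose protein lies at the entry of the mRNA channel, by -0.68 ± 0.21 (adjusted p = 0.018). Rps2 ends 5890 bases upstream of Rpl3l on chromosome 17. Rpl31, Rpl41, Rps24 and Rps29 gave -0.59 to -0.74. Among the members named as lower after T9, Rpl3l alone kept its sign in that comparison with the library median as a covariate. Library medians after T9 did not overlap between the muscles (4.27 to 4.33 in the gastrocnemius, 3.67 to 4.03 in the triceps), so that fit cannot separate them from the muscle.

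Genes that build ribosomes rose in the gastrocnemius after both injuries. Of 40 genes of ribosome assembly and RNA polymerase I, 28 rose and 0 fell in the gastrocnemius after T3 (20 and 0 after centring) and 33 rose and 0 fell after T9 (19 and 0 after centring). Of all genes 27.1% were higher after T3 (14.6% after centring) and 37.6% after T9 (11.1% after centring). The nucleolar protein nucleolin, Ncl, rose by 1.35 ± 0.14 after T3 (adjusted p = 3.0e-05) and 1.22 after T9, and Eif6, which holds the subunits apart, by 1.09 ± 0.15 after T3. Tsr1, needed for small subunit maturation, rose by 1.69 ± 0.24 after T9. The list had medians of 0.66 after T3 and 0.81 after T9, beside 0.27 and 0.40 for all genes. In the triceps 19 of the 40 rose after T3 (6 after centring) and 0 after T9, where 19% of all genes were higher (10.1% after centring), led by Wdr43 (0.76 ± 0.13) and Ncl (0.89 ± 0.16) after T3.

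Of 37 translation initiation factors, 24 rose and 1 fell in the gastrocnemius after T3 and as many after T9 (16 and 1 after T3, 8 and 1 after T9 once centred), beside 27.1% of all genes higher after T3 and 37.6% after T9 (14.6% and 11.1% once centred). In the triceps 16 rose and 0 fell after T3 (10 and 1 once centred), where 19% of all genes were higher (10.1% once centred), and 0 were called after T9. The RNA helicase gene Eif4a1 rose by 1.55 ± 0.21 in gastrocnemius T3, 1.64 ± 0.21 in gastrocnemius T9 and 1.14 ± 0.16 in triceps T3. Of 16 elongation factors and other genes with TOP mRNAs, 6 rose after T3 and 7 after T9 in the gastrocnemius and 3 after T3 in the triceps, with none lower (4, 3 and 2 once centred). The shares of all genes that were higher in these comparisons were 27.1%, 37.6% and 19% (14.6%, 11.1% and 10.1% once centred), so the counts of this list lay near the background after T9 and in the triceps. Hnrnpa1, an RNA-binding protein, rose by 1.26 ± 0.18, 1.04 ± 0.18 and 1.08 ± 0.19 in those 3 comparisons.

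Of 19 genes measured of mTORC1 signalling, MYC and TOP control, 9 rose after T3 and 11 after T9 in the gastrocnemius, with 0 lower (4 and 1 after T3, 4 and 0 after T9 once centred), beside the same 27.1% and 37.6% of all genes higher (14.6% and 11.1% once centred). In the triceps 6 rose and 1 fell after T3 (4 and 2 once centred), where 19% of all genes were higher and 4.32% lower (10.1% and 7.95% once centred), and 0 were called after T9. Eif4ebp1, a repressor of cap-dependent initiation that mTORC1 inactivates, rose by 2.35 after T3 and 1.39 after T9 in the gastrocnemius and by 1.94 after T3 in the triceps. Myc, a transcription factor that acts on ribosome biogenesis genes, had 12.1 ± 4.00 CPM after T3, 17.9 ± 4.05 CPM after T9 and 2.84 ± 1.32 CPM in sham gastrocnemius (SD, n = 4 each). In the triceps Myc averaged 2.60 ± 1.27 CPM after T3, 2.61 ± 0.98 CPM after T9 and 2.67 ± 1.11 CPM in sham (SD, n = 6 each).

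Mitochondrial ribosomal proteins are the counterpart in the organelle. Of 74 such genes 4 rose and 13 fell in the gastrocnemius after T3 (1 and 24 once centred) and 3 rose and 10 fell after T9 (0 and 20 once centred). Of all genes 27.1% were higher and 6.65% lower after T3 (14.6% and 14.5% once centred), and 37.6% were higher and 5.67% lower after T9 (11.1% and 12.4% once centred). In the triceps 12 rose and 0 fell after T3, but 1 and 1 once centred, where 19% of all genes were higher (10.1% once centred).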

How the data were processed

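RNA with polyA tails was sequenced in pairs of 150 bases from stranded libraries, per the labels' protocols. The authors' deposited table gives a log2 value for each of 11249 genes in 30 libraries. It was made with HISAT2 2.1.0, featureCounts, Subread 1.5.1 and limma on GRCm38, per the submitters' processing notes. From the values, these deposited log2 numbers are log2 CPM after 0.5 was added to each read count: turning them back gave whole reads in 100% of cases (tolerance 0.01). They were scaled to library totals only, so a library of unusual composition shifts many genes at once. Since the unit is log2, no count test was used. No replicate pair was alike within sampling noise (chi-square per degree of freedom 9.78 to 621, 63 pairs).

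The test was limma 3.58.1 in R 4.3.3, two-sided, with a variance trend, on genes that reached a log2 value of 0 in 4 or more libraries. Benjamini-Hochberg adjustment ran over the whole table and calls were made under 0.05. One fit held the 12 gastrocnemius libraries and another the 18 triceps libraries, with a term for a number (57 or 60) in their descriptions that has no stated meaning. Muscles were compared over 24 libraries with each of 12 mice as a block. Mice were inferred from a second number in the descriptions. In 11 of 12 mice both libraries deviated from their groups together (r above 0.1), and the mouse of triceps sham replicate 3 did not (r = -0.75). Rpl3l minus Rpl3 was tested by exact permutation. The labels do not state outright that replicates are separate mice, so p-values measure the spread between these samples.

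Members and gene lists were chosen with earlier results of these data known. Named were all members called, except 1 that is not reported here (of over 10, the 5 largest changes per direction), Rpl3, Rpl3l and the other paralog pairs, and from other lists up to 4 genes with the smallest adjusted p per comparison. Rpl10 and Rpl4 within or between muscles and Myc in the triceps were named after their values were seen. Lengths are those of 1 transcript per gene of the GRCm38 annotation. The limma fit was run on simulated reads, drawn separately for each gene without shifts shared by many genes of a library. That run therefore does not cover the shared library shifts seen in these data. The alternatives were centring on the library median, quantile normalization, other filters, log2(CPM + 1), voom weights on recovered reads, a fit of transcript length and GC per library (the trend removed), a covariate of library medians, other choices of libraries and blocks, and leaving out single libraries. Centring on the ribosomal protein genes was chosen after seeing the data.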

Additional observations from a re-analysis of the deposited data

Results flagged for a closer look

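Of 48 sets of libraries examined for 1 library far from the rest of its group, 3 held one, where chance alone gives about 1 in 20. Triceps sham replicate 4 stood at 1.505 for Rpl3l minus Rpl3 (log2), below the other 5 sham libraries of that muscle. The same library held 999.6 CPM summed over macrophage markers, far above the rest. Triceps T9 replicate 1 stood at 9.82 for log2 CPM of Rpl3l, above the other 5.

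Responses that differed between the muscles by a test of the difference itself are listed as gastrocnemius minus triceps. Rpl3l minus Rpl3 differed by -1.84 for T3 and by -3.31 for T9. As single genes after T9, the differences were 2.43 for Rpl3, -0.88 for Rpl3l, 1.41 for Rps27a, 1.33 for Rpl13a and 0.76 for Rps6. These are the calls among 78 members, where 6.95% of all genes were called. After centring each library on its median only Rpl3 kept its call, where 8.21% of all genes were called.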

How the results depend on the processing

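Rpl3 kept its sign and call in the gastrocnemius after T9 under all 24 alternatives run (1.45 to 2.38) and after T3 under 23 (0.90 to 1.54). Rpl3l kept its sign in the gastrocnemius and was called under 22 of 24 after T3 (-1.04 to -0.40) and 22 of 24 after T9 (-1.46 to -0.53). The same replicate number within a muscle did not pair libraries, since 13 of 30 pairs had r above 0.1, and with the replicate block 0 members were called in triceps T3 against sham. The mouse is a block between muscles: without that block the T9 response had 2 calls, the muscles 0 calls in sham, 1 after T3 and 2 after T9.

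Counts of members called moved as follows, the cause not tested. The covariate of library medians nearly follows surgery in the gastrocnemius, so its counts there are not a check of scaling alone. After T3 in the gastrocnemius (2) the count was 1 with median centring, 14 with the length and GC trend removed, 24 with the library median as a covariate and 1 with centring on ribosomal protein genes. After T9 (2) it was 34 with the trend removed, 68 with the covariate, 8 without the 4 libraries of lowest median and 1 with centring on ribosomal protein genes. For gastrocnemius T3 against T9 (0) it was 1 with the covariate and 2 with only the groups compared. For triceps T3 (1) it was 6 with the trend removed, 13 with the covariate, and 0 with only the groups compared, without the label term or with label number 60 only. For triceps T3 against T9 (0) it was 1 with the trend removed and 1 with the covariate. The T3 response between muscles (0) gave 1 with quantile normalization, 5 with the trend removed and 39 with the covariate. The T9 response (5) gave 1 with median centring, 53 with the trend removed, 75 with the covariate, 2 without the 4 libraries and 1 with centring on ribosomal protein genes.

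Between muscles in sham (75) the count was 37 with the trend removed, 18 with the covariate, 0 without the 4 libraries and 14 with centring on ribosomal protein genes. After T3 (4) it was 2 with median centring, 21 with quantile normalization, 7 with log2(CPM + 1), 7 with voom, 11 with the trend removed, 1 with the covariate, 65 without the 4 libraries and 0 with centring on ribosomal protein genes. After T9 (8) it was 35, 26, 46, 43, 13 and 4 with median centring, quantile normalization, the trend removed, the covariate, without the 4 libraries and with centring on ribosomal protein genes.

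Leaving out 1 library or mouse at a time gave 2 to 5 members called after T3 and 2 to 8 after T9 in the gastrocnemius, 0 to 0 for T3 against T9, 0 to 4 in triceps T3 and 0 to 0 in the other triceps comparisons. It gave 0 to 1 for the T3 response, 1 to 6 for the T9 response, 3 to 76 between muscles in sham, 0 to 60 after T3 and 2 to 41 after T9. Rpl3l minus Rpl3 ran from -2.21 to -1.78 (gastrocnemius T3), -3.04 to -2.80 (T9), 0.70 to 1.13 (T3 against T9), -0.82 to -0.32 (triceps T3), -0.22 to 0.28 (triceps T9) and -0.81 to -0.47 (triceps T3 against T9). Between muscles it ran from -1.61 to -1.18, from -2.25 to -1.45 for the T3 response and from -3.46 to -2.92 for the T9 response. With 3 libraries against 4 the smallest exact permutation p still lies under 0.05, so the values above it are not the lower limit of the test.

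Signs turned for genes not called. Rpl3 in triceps T3 was -0.16 with median centring, -0.12 with quantile normalization, -0.31 with label number 60 only and, over single libraries left out, -0.063 to 0.43 (-0.0093, -0.030, -0.0091, -0.059, -0.0048 and -0.063 without sham 1, 2, 5 and 6 and T3 2 and 5). In triceps T9, Rpl3l was 0.033 with the covariate and 0.17 with centring on ribosomal protein genes, and Rpl3 was 0.12 with the covariate, 0.17 without the 4 libraries, 0.013 with centring on ribosomal protein genes and 0.096 without sham replicate 4 (-0.39 to 0.096 over single libraries left out). Between muscles in sham, centring on ribosomal protein genes gave 0.59 for Rpl3l, a call in the other direction (adjusted p = 0.010). Of called genes, the same centring gave 0.22 for Rpl3 in sham, and between muscles after T9 the covariate gave 0.27 for Rps24, 0.26 for Rps29, 0.058 for Rps2, 0.30 for Rpl31 and 0.39 for Rpl41, and the trend removed gave 0.14 for Rps29.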
